A study of Mus musculus with 2 samples.

Results

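The nuclear pore and nuclear transport genes are the parts of the channel through the nuclear envelope and the carrier proteins that take cargo through it. They were taken by symbol: Nup, Kpna, Kpnb, Ipo or Xpo followed by a digit, together with Xpot, Tnpo1, Tnpo2 and Tnpo3. Only probe sets with a single gene symbol counted, and the probe set with the highest mean of both samples stood for a gene. This gave 41 genes, 18 nucleoporins and 23 carriers, of 22180 genes on the array. Transcript levels had been measured on an Affymetrix whole-transcript array in 2 samples of the mouse embryonic stem cells labelled NIWA ESC. The first came from the stable line that carries EWS-OCT4A-GFP, here the fusion line, and the second from the stable line that carries GFP, here the control line. The fusion protein links EWS, an RNA-binding protein, to the pluripotency factor OCT4A. Both lines were grown in stem cell medium with LIF, the cytokine that holds mouse embryonic stem cells in self-renewal, and both received doxycycline at 1 µg/ml to lower their own OCT-4, so that the control carries this loss too. The sources used here do not give the promoter that drives each transgene, whether a line is 1 clone or how long doxycycline was applied.

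Each group has 1 sample, so no difference below has a replicate check, an error or a p-value. Values are RMA values on the log2 scale, and every difference is fusion line minus control line. A gene was counted as higher or lower when it differed by at least 2-fold (a log2 difference of 1) and its higher value reached 4.10, the median over both arrays together, called the floor here. Levels are compared only within a gene, since probe sets differ in brightness.

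The nuclear pore is a ring-shaped assembly of many copies of the nucleoporins. An outer ring and an inner ring form the scaffold, nucleoporins rich in phenylalanine-glycine repeats fill the central channel, and filaments and a basket extend from its faces. Importins carry proteins inward and release them when they bind the GTP form of the small GTPase Ran, whereas exportins bind cargo together with that form and take it out. In mouse embryonic stem cells the importin alpha encoded by Kpna2 is known to bring OCT4 into the nucleus, and a switch between importin alpha subtypes is known to accompany neural differentiation.

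Of the 41 pore and transport genes, 39 were counted as neither higher nor lower, beside 19313 of all 22180 genes. Absolute log2 differences under 0.5 were found for 61.0% of the 41, 66.3% of all genes and 53.6% of those that reached the floor. The outer ring gene Nup43 was the 1 gene higher by at least 2-fold (2.44% of the 41), beside 5.68% of all genes. The transportin gene Tnpo2 was the 1 lower (2.44%), beside 7.25%. The median difference over the 41 genes was 0.20, and that over all 22180 genes was 0.00. Differences above 0 were found for 25 of the 41 and below 0 for 16, and 61.0% against 49.6% of all genes lay above 0. The middle of the distribution ran from -0.20 to 0.57 (lower to upper quartile), compared with -0.31 to 0.34 over all genes and -0.46 to 0.46 over the 13516 genes that reached the floor. With the mark at 1.5-fold, 9 of the 41 were higher (22.0%) and 3 lower (7.32%), beside 12.2% and 12.6% of all genes. Of the 41 genes 38 reached the floor, and among all genes that reached it the shares were 9.31% higher and 11.9% lower at 2-fold and 20.0% and 20.6% at 1.5-fold, so that the share of the 41 higher at 1.5-fold lies near this background. The size of the lean towards higher values depends on the scaling. The median of the 41 was 0.081 when the difference was centred by loess on the level, with 23 of them above 0. It was 0.17 under median centring and 0.23 under quantile normalization, with 25 and 26 above 0. The median over all genes was -0.0275 under loess, -0.032 under median centring and -0.0075 under quantile normalization.

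**Figure D1:**
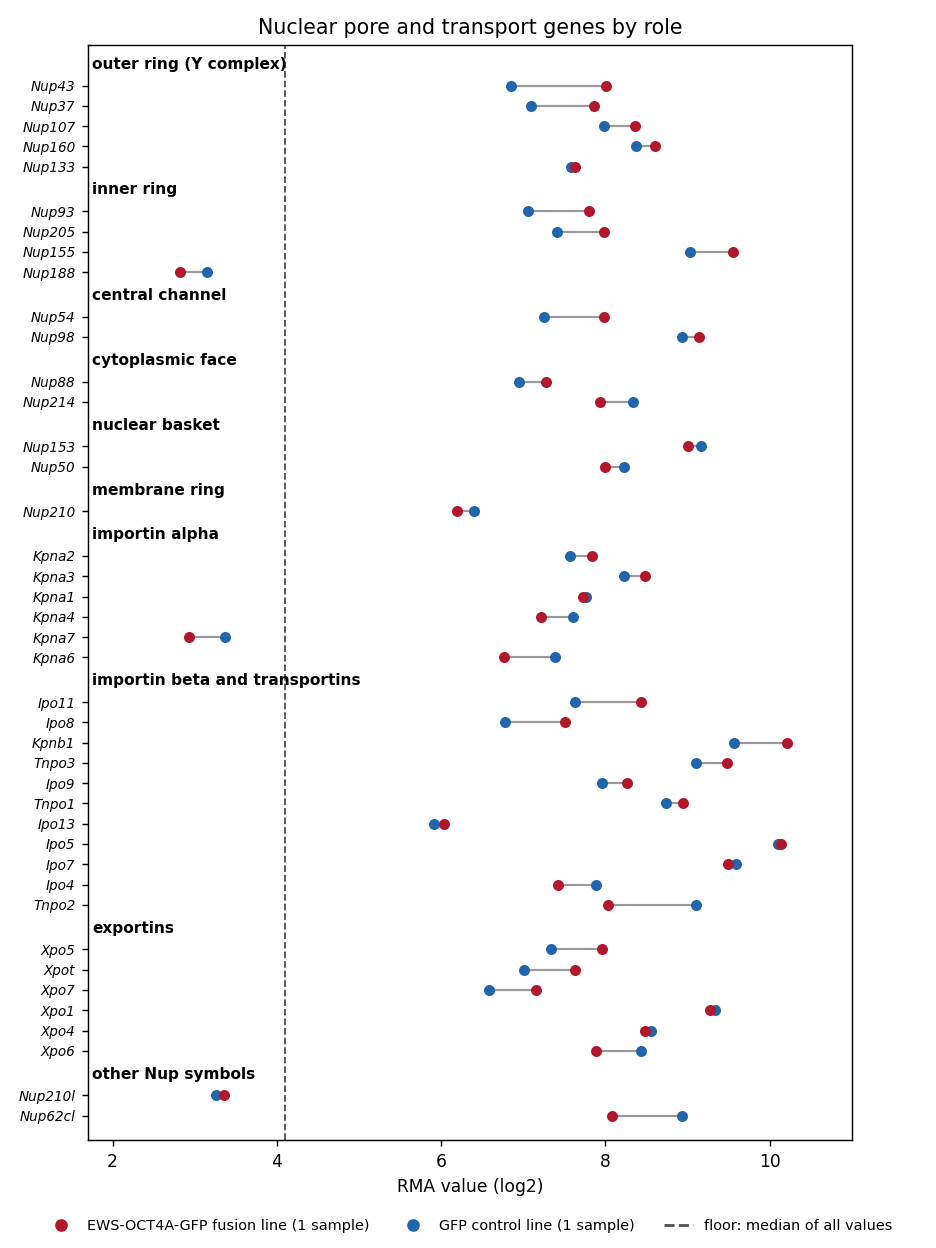
RMA values (log2, horizontal axis) of the 41 genes in EWS-OCT4A-GFP (fusion line, red) and GFP (control line, blue), 1 sample each, joined by a line and ordered by role; the dashed line is the floor of 4.10. The red point lies to the right for all 5 outer ring genes and to the left for both nuclear basket genes, and 3 genes (Nup188, Kpna7 and Nup210l) lie under the floor in both samples.

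**Figure D2:**
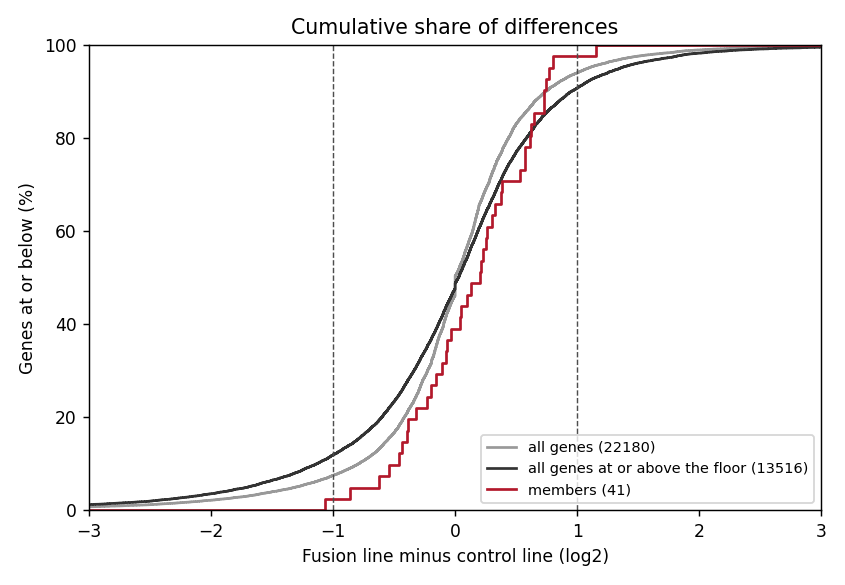
Share of genes (%, vertical axis) with a difference at or below the value on the horizontal axis (fusion line minus control line, log2), for all 22180 genes, the 13516 at or above the floor and the 41 pore and transport genes; dashed lines mark 2-fold. The curve of the 41 genes starts at -1.07 and ends at 1.16, inside the range of the other curves, and lies to their right over its middle.

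Promoter sequences are shown for the genes with the largest differences and for a group of scaffold and channel genes whose promoters share the letters of an ETS site and that all read higher in the fusion line. The second group was chosen after its values were seen, so its common direction carries no weight. Tnpo3 (0.37) and Ipo4 (-0.46) also have ETS letters and are not shown. Each line holds the 250 bases before an annotated start of transcription, 5′ to 3′ on the gene's strand, from RefSeq (GRCm38.p6). Capitals mark the letters of any of 7 motifs searched on both strands: the octamer ATGCAAAT bound by OCT4, the E-box CACGTG, the ETS core CCGGAAG, the NRF1 site, CCAAT, the cell cycle element CHR as TTTGAA, and the YY1 site AAGATGGC. In the windows shown, no base belonged to more than 1 motif.

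The outer ring gene Nup37 (differing by 0.77) has 2 annotated starts, of which the window of the downstream one, chr10:88146821-88147070 (plus strand), holds ETS letters at 2 places, and the channel gene Nup54 (0.73) has a window at chr5:92435200-92435449 (minus strand). Nup107 (0.39), at chr10:117792706-117792955 (minus strand), also has NRF1 letters at 2 places, and the inner ring gene Nup155 (0.53), at chr15:8109063-8109312 (plus strand), has its ETS letters just before the start.
Nup37: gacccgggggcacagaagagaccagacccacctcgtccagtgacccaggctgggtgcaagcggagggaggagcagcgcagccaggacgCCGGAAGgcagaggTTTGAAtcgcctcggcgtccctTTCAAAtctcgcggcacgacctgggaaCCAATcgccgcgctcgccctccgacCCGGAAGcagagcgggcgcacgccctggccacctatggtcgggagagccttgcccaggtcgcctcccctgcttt
Nup54: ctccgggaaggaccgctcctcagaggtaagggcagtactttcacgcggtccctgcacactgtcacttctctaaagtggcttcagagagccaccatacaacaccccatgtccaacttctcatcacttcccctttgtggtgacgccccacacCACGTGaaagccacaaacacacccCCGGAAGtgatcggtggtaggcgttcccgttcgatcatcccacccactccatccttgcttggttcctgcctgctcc
Nup107: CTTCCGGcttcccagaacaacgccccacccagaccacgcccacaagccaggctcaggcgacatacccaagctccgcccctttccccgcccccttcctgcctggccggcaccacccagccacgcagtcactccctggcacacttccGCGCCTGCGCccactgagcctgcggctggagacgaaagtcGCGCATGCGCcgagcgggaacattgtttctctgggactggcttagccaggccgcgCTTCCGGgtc
Nup155: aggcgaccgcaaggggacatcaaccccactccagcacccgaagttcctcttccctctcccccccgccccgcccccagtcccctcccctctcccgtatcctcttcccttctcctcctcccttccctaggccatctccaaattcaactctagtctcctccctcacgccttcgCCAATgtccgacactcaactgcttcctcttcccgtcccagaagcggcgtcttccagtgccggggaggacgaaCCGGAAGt

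Of the genes with the largest differences, the importin gene Ipo11 (0.80) has a window at chr13:106936959-106937208 (minus strand). The window of Tnpo2 (-1.07) shown is that of the upstream one of 2 starts, at chr8:85036643-85036892 (plus strand), with E-box letters at 2 places, whereas the window of its other start held none of the 7 motifs. Nup62cl (-0.86), on chromosome X, has a window at chrX:140062569-140062818 (minus strand) with CCAAT at 2 places.
Ipo11: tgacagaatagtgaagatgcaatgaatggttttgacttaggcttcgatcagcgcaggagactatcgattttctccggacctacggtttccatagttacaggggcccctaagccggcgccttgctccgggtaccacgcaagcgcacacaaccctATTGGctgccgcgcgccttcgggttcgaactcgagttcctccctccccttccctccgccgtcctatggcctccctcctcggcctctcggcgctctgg
Tnpo2: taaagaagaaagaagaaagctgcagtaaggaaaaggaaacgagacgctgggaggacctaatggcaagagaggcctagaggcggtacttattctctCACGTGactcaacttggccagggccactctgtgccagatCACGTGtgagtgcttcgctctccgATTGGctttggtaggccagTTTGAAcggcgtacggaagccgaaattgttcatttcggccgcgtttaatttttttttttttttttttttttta
Nup62cl: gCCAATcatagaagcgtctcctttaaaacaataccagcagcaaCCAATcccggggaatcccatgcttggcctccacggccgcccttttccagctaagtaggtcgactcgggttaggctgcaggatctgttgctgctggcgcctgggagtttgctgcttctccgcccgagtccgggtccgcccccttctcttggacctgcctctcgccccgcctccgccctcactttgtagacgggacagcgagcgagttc

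The RefSeq promoter table held 41 promoters for 34 of the 41 genes. Nup43, Nup210l, Kpna1, Kpna3, Kpna6, Xpo4 and Xpo7 had no entry in it. ETS letters were present in 7 of the 41 promoters (17.1%), against 6.91% of all 32851 promoters and 8.98% of those of coding genes. The 2 windows of Nup37 overlap and share letters. The 7 promoters belonged to 6 genes, Nup37, Nup54, Nup107, Nup155, Tnpo3 (0.37) and Ipo4 (-0.46). E-box letters were found in 6 promoters (14.6% against 6.02% of all), those of Nup54, Nup93, Nup188, Xpot, Ipo7 and Tnpo2, whose differences ran from 0.74 to -1.07. NRF1 letters were found in 5 (12.2% against 3.74%), CCAAT in 20 (48.8% against 33.8%), CHR letters in 8 (19.5% against 16.0%) and YY1 letters in 2 (4.88% against 1.56%). Over promoters of coding genes the shares were 5.18% for NRF1, 6.63% for the E-box, 35.4% for CCAAT, 14.5% for CHR and 1.5% for YY1. The octamer was in 0 of the 41 windows and in 1.60% of all. The promoters of the pore and transport genes had a median GC content of 64.4%, against 52.4% over all promoters and 55.6% over those of coding genes, and its part in the motif shares was not tested. The median difference of the genes with and without a motif, over the 34 with a promoter, was 0.46 and 0.086 for ETS letters, 0.35 and 0.16 for NRF1, 0.25 and 0.21 for the E-box, 0.12 and 0.22 for CCAAT, -0.11 and 0.23 for CHR and -0.28 and 0.22 for YY1. These splits rest on 2 to 18 genes with the motif, and the ETS split includes the genes picked for display after their values were seen. The YY1 genes are Nup50 and Nup188, and the probe set of Nup188 was under the floor in both samples. Nup188 is also among the E-box genes, and Kpna7, likewise under the floor, is among the CHR genes. A match of letters is a description and not a bound site.

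All 5 outer ring genes read higher in the fusion line. The outer ring is built from Y-shaped complexes that coat the membrane around the pore. Nup43, a beta-propeller subunit of the Y complex, read 8.01 in the fusion line and 6.85 in the control line, a log2 difference of 1.16 or 2.23-fold. Nup37, another beta-propeller subunit, read 7.86 and 7.09, a difference of 0.77 or 1.71-fold. The scaffold subunit genes Nup107 (8.36 against 7.98) and Nup160 (8.61 against 8.37) differed by 0.39 and 0.23. Nup133, a subunit needed for neural differentiation of mouse embryonic stem cells, was level at 7.63 and 7.59, and its difference of 0.045 turned below 0 under loess centring. The differences thus ran from 0.045 to 1.16 with a median of 0.39, and Nup43 alone passed 2-fold. Nup85, also of this complex, was measured only by a probe set shared with Hmgb1, at 6.85 and 6.29 (0.56), and is not among the 41.

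Inner ring genes also read higher apart from Nup188. Nup93, which links the inner ring to the channel nucleoporins, read 7.80 in the fusion line and 7.06 in the control line, a difference of 0.74 or 1.67-fold. The large scaffold genes Nup205 (7.98 against 7.41) and Nup155 (9.56 against 9.03) differed by 0.57 and 0.53. The probe set that stood for Nup188 was under the floor in both samples, at 2.82 and 3.15. A probe set shared between Nup188 and Phyhd1 read 8.63 and 8.43, a difference of 0.20, so that the inner ring value of Nup188 depends on which probe set is read.

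Both channel genes among the 41 read higher in the fusion line. Nup54, a partner of Nup62 in the channel, read 7.98 and 7.25, a difference of 0.73 or 1.66-fold. Nup98, which encodes a repeat nucleoporin and, from the same precursor, the outer ring subunit Nup96, read 9.13 and 8.93, a difference of 0.20. Nup62 itself was measured only by a probe set shared with Il4i1 and Il4i1b, which read 6.08 and 5.95 (0.13). Their partner Nup58, under its older symbol Nupl1, shared its probe set with Mir719, at 7.65 and 7.95 (-0.30).

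Of the 5 genes of the cytoplasmic face, nuclear basket and membrane ring, which are separate roles, Nup88 lay above 0 and the other 4 below it. On the cytoplasmic face, where export complexes are taken apart, Nup88 read 7.28 in the fusion line and 6.95 in the control line (0.33), and its partner Nup214 read 7.94 and 8.33 (-0.39). Both nuclear basket genes were slightly lower: Nup153 read 9.00 and 9.16 (-0.16) and Nup50, a cofactor of importin alpha release, 7.99 and 8.22 (-0.23). Nup210, a membrane-spanning nucleoporin known for its part in muscle and neural differentiation, read 6.20 and 6.40 (-0.20). Of these 5 genes Nup214 differed most, by -0.39. Whether the scaffold and peripheral genes differ from each other could not be tested with 1 sample per line.

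Of the other symbols that begin with Nup, Nup62cl, named for its likeness to the end of Nup62, had the lowest difference of the nucleoporin-named genes. It read 8.08 in the fusion line and 8.94 in the control line, a difference of -0.86, or 1.82-fold lower, and stayed within the 2-fold mark. Nup210l, the paralog of Nup210, was under the floor in both samples, at 3.35 and 3.26.

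**Figure D3:**
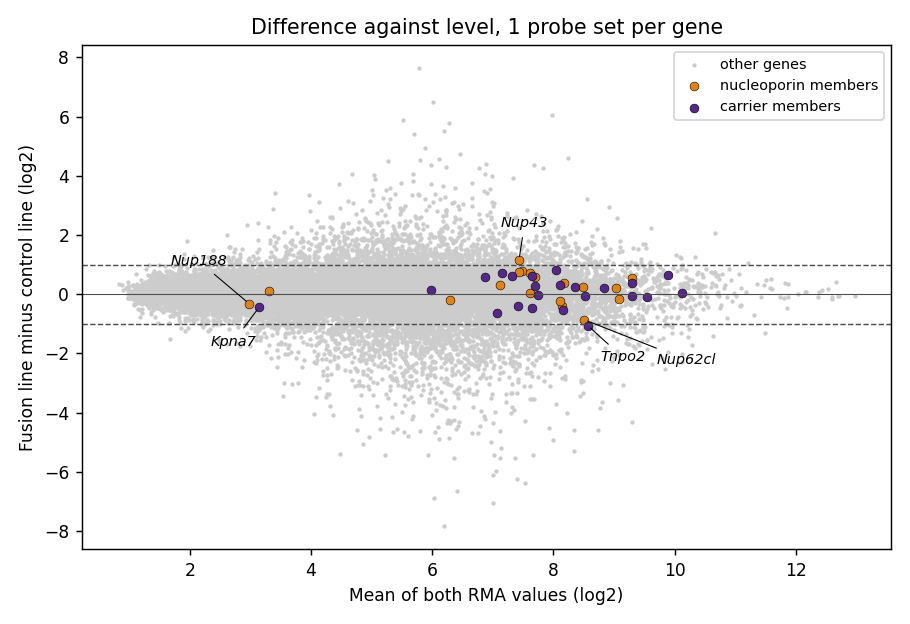
Difference between the samples (fusion line minus control line, log2, vertical axis) against the mean of both RMA values (log2, horizontal axis) for 1 probe set per gene; nucleoporins are orange, carriers purple and all other genes grey, and dashed lines mark 2-fold. Nup43 lies just above the upper line at 1.16 and Tnpo2 just below the lower line at -1.07, while other genes of the same level reach several log2 units.

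The importin alpha genes, which encode the adaptors that read the classical import signal, showed no common direction. Kpna2 read 7.83 in the fusion line and 7.57 in the control line, a difference of 0.26, and Kpna3 read 8.48 and 8.23, a difference of 0.25. Kpna1, the subtype that becomes prominent in neural differentiation, was level at 7.73 and 7.76 (-0.030, and above 0 under quantile normalization). Kpna4 read 7.21 and 7.60 (-0.39). Kpna6 read 6.76 and 7.39, a difference of -0.62 or 1.54-fold lower, but its second probe set, at 4.04 and 3.90, differed by 0.14. Kpna7, an importin alpha of oocytes and early embryos, was under the floor in both samples, at 2.93 and 3.36. All 6 stayed within 2-fold, with 2 differences above 0 and 4 below and a median of -0.21, which became 0.054 when the dimmest probe set stood for a gene.

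Kpnb1, which encodes importin beta, the carrier that works with importin alpha, read higher on each of its probe sets. The brightest read 10.2 in the fusion line and 9.57 in the control line, a difference of 0.65 or 1.57-fold. Its other single-symbol probe sets differed by 0.58 (9.57 against 8.99) and 1.15 (7.47 against 6.32), and one shared with Gm8738 by 0.47. The direction was thus the same in all 4, whereas the dimmest single-symbol set alone passed 2-fold.

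Of the other importins, Ipo11 and Ipo8 read higher and Ipo4 lower. Ipo11, which imports ubiquitin-conjugating enzymes, read 8.44 and 7.64, a difference of 0.80 or 1.74-fold. Ipo8, a carrier of SMAD and Argonaute proteins, read 7.51 and 6.78, a difference of 0.73 or 1.66-fold. Ipo9, a histone importer, differed by 0.31 (8.27 against 7.96) and Ipo13, which carries cargo both ways, by 0.13 (6.04 against 5.91). Ipo5 and Ipo7, importers of ribosomal proteins, were nearly level at 10.14 against 10.10 (0.038, and below 0 under loess centring) and at 9.49 against 9.59 (-0.11). Ipo4 read 7.42 and 7.88 (-0.46), and its second probe set, at 4.79 and 5.24, gave -0.45.

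The transportin genes went different ways. Tnpo1, which encodes a carrier of RNA-binding proteins, read 8.95 in the fusion line and 8.73 in the control line (0.21). Tnpo2, its close paralog, read 8.04 and 9.10, a difference of -1.07 or 2.09-fold lower, the largest negative difference of the 41. Tnpo3, the importer of SR splicing factors, read 9.48 and 9.11 (0.37). Probes of paralogs as similar as Tnpo1 and Tnpo2 may bind each other's transcripts, and the extent was not tested. Over the 11 genes of the importin beta family 8 differences lay above 0 and 3 below, with a median of 0.21 (0.094 under loess centring).

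Of the exportin genes 3 read higher and 3 were level or lower. Xpo5, the exporter of microRNA precursors, read 7.96 and 7.34, a difference of 0.62 or 1.54-fold. Xpot, the tRNA exporter, read 7.63 and 7.01 (0.61, 1.53-fold), and Xpo7 read 7.16 and 6.59 (0.57). Xpo1, the main exporter of proteins, was level at 9.27 and 9.33 (-0.063), as was Xpo4, at 8.48 and 8.56 (-0.076), which is also known to import SOX2. Xpo6, the actin exporter, read 7.89 and 8.43 (-0.54). No exportin passed 2-fold.

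The only scale of error that the table offers is the disagreement between probe sets of a gene. Over 543 genes with 2 probe sets at or above the floor, the differences measured by the 2 brightest were apart by a median of 0.34, with a 75th percentile of 0.74 and a 90th percentile of 1.46. The absolute difference was larger than that median for 22 of the 41 genes, larger than the 75th percentile for 6 and larger than the 90th for 0. As shares these are 53.7%, 14.6% and 0.0% of the 41, beside 48.4%, 20.8% and 6.64% of all genes and 60.9%, 31.1% and 10.8% of those at or above the floor, so that the first lies near the background. This spread covers probe sets within these arrays and not cultures, and it was looked at after the differences were known.

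Other genes of the same pathway were followed as lists drawn from general knowledge. Of 11 measured pore components with other symbols, 7 lay above 0 and 4 below, all within 2-fold, with a median of 0.21. The Y complex genes Seh1l (9.01 against 8.63) and Sec13 (7.42 against 7.14) differed by 0.38 and 0.28, and Nupl2, a cytoplasmic nucleoporin also called Nup42, by 0.48. The dimmer probe set of Seh1l gave 0.82. Pom121, a membrane nucleoporin, was lowest at 8.16 against 8.78 (-0.62), and Ranbp2, the main protein of the cytoplasmic filaments, differed by -0.12. Ndc1 (8.75 against 8.40, 0.35), Tmem33 (0.22) and Gle1 (0.21) lay above 0, and Aaas (-0.40) and Rae1 (-0.15) below it. Ahctf1 was nearly level at 7.81 and 7.73 (0.078, and -0.016 under loess centring). Tpr, Nup35 and Nutf2 were not analysed here.

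Of 8 measured genes of the Ran cycle and its further carriers, 7 lay above 0 and 2 passed 2-fold, with a median of 0.48. Ranbp17, a relative of the exportins, read 8.86 in the fusion line and 7.48 in the control line, a difference of 1.37 or 2.59-fold. Rcc1, the exchange factor that loads Ran with GTP in the nucleus, read 7.51 and 6.46, a difference of 1.05 that became 0.96 under loess centring. Ranbp1 differed by 0.60, Cse1l, which returns importin alpha to the cytoplasm, by 0.41 and Ran by 0.31, whereas Rangap1 (0.023) and Ranbp3 (-0.023) were level.

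Among 15 measured genes of mRNA export, 11 lay above 0 and 4 below, with a median of 0.37. Nxf2 and Nxf3, both below 0, were under the floor in both samples, and the median without them was 0.40. The RNA helicase gene Ddx39b read 9.14 and 7.96 (1.19), although its probe sets disagreed and the dimmest gave -0.85. Nxt2, a cofactor of the NXF exporters, read 6.60 and 5.09, a difference of 1.51 or 2.85-fold, and the main exporter gene Nxf1 read 8.62 and 8.39 (0.24). Nxf7, a family member, read 3.08 in the fusion line, under the floor, and 9.73 in the control line, so that its difference of -6.65 has an uncertain size.

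**Figure D4:**
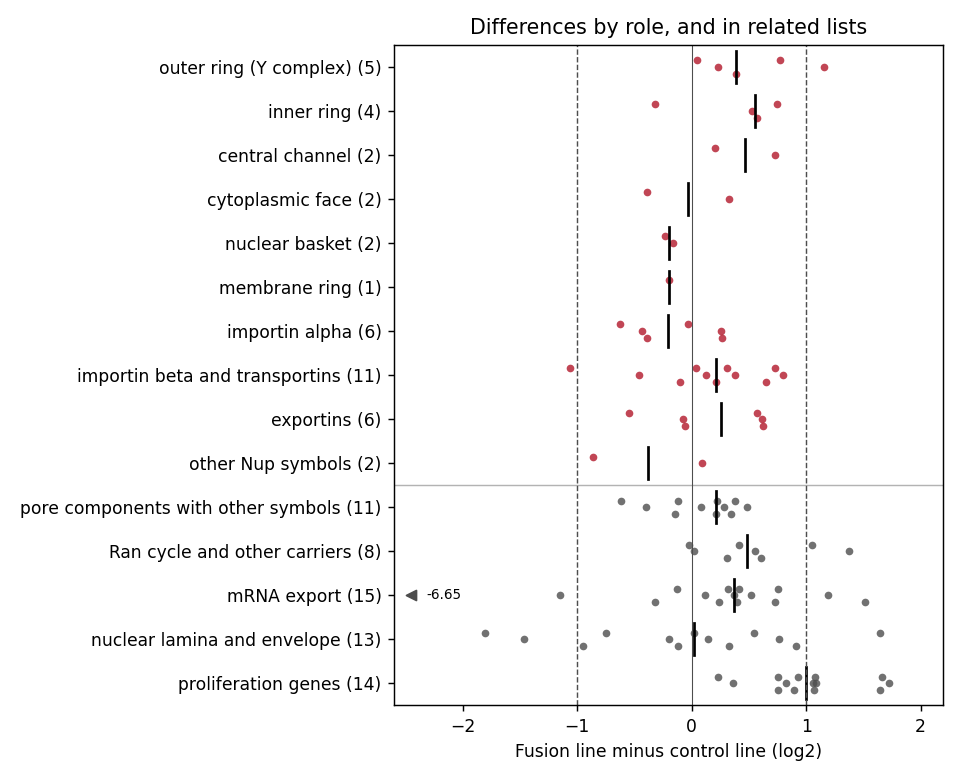
Differences (fusion line minus control line, log2, horizontal axis) of the 41 genes by role (red) and of genes in related lists and a proliferation list (grey), 1 point per gene, with the number of genes in brackets, the median as a black bar and dashed lines at 2-fold; the arrowhead is Nxf7 at -6.65, beyond the axis. Medians of the outer ring (0.39), inner ring (0.55) and channel (0.47) lie to the right of 0, those of the nuclear basket (-0.20), membrane ring (-0.20) and importin alpha genes (-0.21) to its left.

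Several markers of cell state had larger differences than any of the 41 genes. As background for the counts below, 5.68% of all genes were higher and 7.25% lower by at least 2-fold. Among genes that reached the floor the shares were 9.31% and 11.9%. All 7 embryonic stem cell markers lay above 0 and 6 were higher by at least 2-fold, with a mean value of 8.92 in the fusion line and 5.69 in the control line. The exception was Pou5f1, which encodes OCT4, at 5.37 and 5.24, and the sources used here do not say whether its probe set detects the transgene. All 9 trophectoderm markers lay below 0 and 7 were lower by at least 2-fold, with mean values of 4.87 and 8.10. Cdx2 (-0.55) and Elf5 (-0.81) stayed within 2-fold. Of 6 primitive endoderm markers 5 lay below 0, with a median of -0.22 and mean values of 4.20 and 4.98. Dab2 (-2.65) and Gata6 (-2.21) were the 2 lower by at least 2-fold, and Sox7 (0.71) lay above 0. Of 6 fibroblast markers 5 stayed within 2-fold, with a median of -0.030 and mean values of 4.25 and 4.95. The exception was Postn, at 2.02 and 6.06 (-4.04). All 14 measured proliferation genes lay above 0, 7 by at least 2-fold, with a median of 1.00 and mean values of 8.90 and 7.90. The part of cell state and of proliferation in the differences of the pore and transport genes was not tested. In such bulk samples, fewer cells of a type and less RNA per cell cannot be told apart.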

How the data were processed

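The authors deposited 1 table of log2 values for 33793 probe sets and 2 samples, made by RMA in Affymetrix Expression Console 1.1, per the submitters' processing notes. The log base was inferred from RMA and from the range of 0.618 to 13.0. RMA corrects the background, quantile-normalizes arrays, so that a common shift of most transcripts is hidden, and summarises probe sets by median polish. The design text says experiments were duplicated, but the sources used here do not say whether a column is 1 array or a mean. So few arrays limit the precision. No detection call was used.

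The platform annotation named the probe sets, of which 23521 had 1 symbol, 1814 several and 8458 none. All 41 gene IDs matched the RefSeq gene table (GRCm38.p6) with the same symbol. The 41 came from 45 probe sets, with 3 genes having more than 1. The genes and lists were chosen with earlier results of these data known. Genes at least 2-fold apart, the extremes of each role, every gene of small roles and all importin alpha genes were to be named. In the related lists these were genes past 2-fold and the extremes; others were chosen after their values were seen. Promoter windows leave out the 50 bases after the start. The planned comparison of protein sequences was not run. Calls were tested on simulated data with planted differences well past 2-fold in bright genes, and centring on a planted trend without noise. Differences near the 2-fold mark were not covered by these simulations. Alternatives covered threshold, floor, normalization (median, quantile, loess with a span of 0.3) and the probe set rule. Python 3.11.15, numpy 2.4.6, pandas 2.3.3, statsmodels 0.14.6 and matplotlib 3.10.9 were used.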

Additional observations from a re-analysis of the deposited data

How the results depend on the processing

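No paired analysis was possible because each line has a single sample, and no replicate could be left out. The count of pore and transport genes at least 2-fold higher, 1 as reported, was 9 at 1.5-fold, 0 at 3-fold, and 2 when every single-symbol probe set was counted or the dimmest stood for a gene, which added Kpnb1. The count lower, also 1, was 3 at 1.5-fold and 0 at 3-fold. Both counts stayed at 1 without a floor, with the floor at the 75th percentile or at a log2 value of 6, under the 3 normalizations and with averaged probe sets. Under loess centring the median moved to 0.081 for all 41 genes, 0.28 for the outer ring, 0.44 for the inner ring, 0.36 for the channel, -0.31 for the nuclear basket, 0.094 for the importin beta family, 0.15 for exportins, 0.38 for the Ran cycle and -0.081 for the nuclear lamina, the last also -0.014 under median centring. The cytoplasmic face median was 0.0018 under quantile normalization. With the dimmest probe set, medians were 0.054 for importin alpha, 0.24 for mRNA export and 0.18 for the lamina, and Ddx39b turned to -0.85. Over genes at or above the floor, which are fewer, they were -0.030 for importin alpha and -0.86 for the other Nup symbols. The cause of the loess shifts was not tested. The direction changed for Kpna1 under quantile normalization, Ipo5 and Nup133 under loess and Kpna6 with the dimmest probe set, and for 0 of the 41 under median centring or averaging. Signal over background is unknown, which limits Nup188, Kpna7 and Nup210l.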

Other observations

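Genes of the nuclear lamina and envelope, the meshwork and membrane proteins around the pores, were mixed. Of 13 measured, 7 lay above 0 and 6 below, with a median of 0.018. At 2-fold, 1 was higher (7.69%) and 2 were lower (15.4%). Over all genes the shares were 5.68% and 7.25%, and over those that reached the floor 9.31% and 11.9%. Lmna, which encodes the A-type lamins that are low in embryonic stem cells, read 4.47 in the fusion line and 6.28 in the control line, a difference of -1.81. The B-type lamin gene Lmnb1 was level at 8.10 and 8.08, whereas Lmnb2 read 5.78 and 5.02 (0.77). Banf1, which encodes a DNA-binding protein that helps the envelope re-form after mitosis, read 8.60 and 6.96, a difference of 1.64 or 3.12-fold. Tor1aip1, an inner membrane protein gene, read 5.09 and 6.56 (-1.47). The lamin B receptor gene Lbr differed by 0.54 and Lemd3 by -0.95, which became -1.04 under loess centring. Tmpo differed by 0.91, which became 1.01 with averaged probe sets and 1.12 with the dimmest. Sun2 differed by -0.75, which became 0.18 with the dimmest probe set.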
